A study of Mus musculus with 12 samples.

Results

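The comparison set 3 intracranial melanomas from mice that received combined immune checkpoint blockade together with depletion of natural killer (NK) cells (ΔNK) against the 6 intracranial melanomas from mice that received the blockade alone (PC), whatever the number of CD8+ T cells in the latter. Libraries were taken by their treatment label, 9 of the 12 in the series, and every gene that passed a filter on low counts was tested, 17320 of the 54532 genes in the count table. All mice were wild-type C57Bl6 animals with B16-OVA melanoma cells, a mouse melanoma line that carries the model antigen ovalbumin, under the skin of the flank and, 3 days later, in the striatum. PC stands for antibodies against PD-1 and CTLA-4, given on days 5 and 7 after the intracranial implantation according to the series record, and whole tumors were taken on day 8, 1 tumor from each of 3 separate mice per group. ΔNK mice received the same blockade plus an antibody against the glycolipid asialo-GM (asialo-GM2 in the labels, asialo-GM1 in the study's methods), kept up through the experiment. The 6 PC tumors consisted of 3 with low (CD8L) and 3 with high (CD8H) abundance of CD8+ T cells, a split that the study made on the tumors themselves; how many PC mice they were drawn from was not given in the sources used here. The other 3 tumors came from mice given control antibodies (IgG), which carried the same cells; they entered the estimate of the spread and are quoted as a reference.

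NK cells are innate lymphocytes that kill stressed or transformed cells without prior priming. They read the balance between activating receptors, such as NKp46 and NKG2D, and inhibitory receptors for MHC class I, and they release perforin, granzymes, interferon-γ and chemokines that draw in dendritic cells and T cells. Antibodies against asialo-GM are widely used to remove NK cells from mice, although the glycolipid is also found on some activated T cells and basophils, and the antibody is therefore not fully selective.

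Total counts ran from 16336993 to 23707901 in the ΔNK libraries and from 18037533 to 26416214 in the PC libraries. The ΔNK replicate 2 tumor stood apart from the other ΔNK tumors in its interferon-induced genes and also in T cell, MHC class II and macrophage genes, as given below. Brain tissue also varied among the tumors: the mean log2 CPM (reads of a gene scaled to the library's size) of 18 neuron markers was 2.15 to 3.95 in ΔNK, 2.48 to 6.93 in PC and 2.56 to 5.86 in IgG tumors, with the highest value in CD8H replicate 2.

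Most of the tested genes of NK cells, T cells, antigen presentation and the interferon response were lower in ΔNK than in PC tumors at an unadjusted p of at most 0.05. In sterol and fatty acid synthesis 17 of 30 genes were higher at that threshold, a count that became 3 without ΔNK replicate 2. No single gene passed the adjusted test. In edgeR's quasi-likelihood test with Benjamini-Hochberg adjustment over all tested genes, 0 genes were called (0% of those tested) and the smallest adjusted p was 0.135, shared by 676 genes. At an unadjusted p of at most 0.05 there were 3453 genes, against 866 that this threshold gives by chance over as many genes with no difference. Of these, 2545 were lower (14.7% of all tested) and 908 higher in ΔNK tumors (5.24%). The median log2 difference over all tested genes was −0.03. Expression in all 3 ΔNK tumors lay below that in all 6 PC tumors for 1005 genes (5.8%) and above it for 395 (2.28%). For a single gene, such a separation gives p = 0.0238 in a two-sided exact permutation test, the smallest value possible with 3 tumors against 6.

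The number of calls depended on the model. With the CD8L and CD8H tumors fitted as separate groups and ΔNK set against the mean of both, 1210 genes were called lower (6.99%) and 540 higher (3.12%). That model takes the CD8 split, which was itself observed in these tumors, out of the residual spread. The DESeq2 Wald test with the treatment groups called 1431 genes, and limma voom with sample quality weights called 6522. Leaving out CD8L replicate 2 raised the edgeR count from 0 to 634. All differences given hereafter come from edgeR with the 6 PC tumors as a single group unless stated otherwise, unadjusted p-values are descriptive, and levels are CPM. In these bulk tumors, fewer cells of a type and less RNA per cell cannot be told apart.

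NK receptor genes had some of the smallest p-values of the data set. Of 26 listed receptor genes 25 passed the count filter, and 24 of these were lower at an unadjusted p of at most 0.05, with a median log2 difference of −4.99. For 20 of the 25, expression in all ΔNK tumors was below that in all PC tumors. Klra5, another Ly49 receptor gene, did not pass the filter. The summed level of the list was 4.67 to 10.1 CPM in ΔNK tumors, 17.7 to 40.3 in CD8L, 116 to 282 in CD8H and 30.6 to 65.6 CPM in IgG tumors, so that the ΔNK tumors were also below the tumors of mice that had received no blockade.

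Ncr1 (ENSMUSG00000062524, GRCm38.p6 chr7:4337724-4345164, plus strand), which encodes NKp46, the receptor that defines NK cells across mammals, was at 0.0455, 0 and 0.0522 CPM in the 3 ΔNK tumors. In the 6 PC tumors it was at 0.223 at the lowest, 1.55 at the median and 4.15 CPM at the highest, and in the IgG tumors at 1.07 to 2.58 CPM. The groups did not overlap, and the lowest PC tumor was CD8L replicate 2. Only 2 Ncr1 reads were counted over all 3 ΔNK libraries against 227 over the 6 PC libraries, a depth-scaled ratio of 51.1 (95% interval 14 to 425, counting error only). The unadjusted p was 0.000204 and the adjusted p 0.135 in edgeR's test.

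The Ly49 receptors, which bind MHC class I molecules and vary in number between mouse strains, had the same pattern. Klra8 (chr6:130115226-130129898, minus strand), an activating Ly49 receptor known for recognizing a cytomegalovirus protein, was at 0, 0 and 0.0522 CPM in ΔNK tumors and at 0.779, 1.84 and 3.43 CPM (lowest, median, highest) in PC tumors. It had the smallest p of the named genes (unadjusted p = 1.88e-05), with 1 read in the ΔNK libraries against 247 in the PC libraries. Klra7 (chr6:130218605-130233322, minus strand), an inhibitory member, had 1 read against 352. Klra4, an activating member, had 1 read against 204, and Klra9, an inhibitory member, had 3 against 122. Klra1, another inhibitory member, had none against 83, which puts it at least 12.5-fold lower when the ΔNK total is set to 3 counts. These genes are close copies of each other, so reads could have been assigned among them or discarded as ambiguous, and the split between members is less certain than the family's level.

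Klrb1c (NK1.1), the surface marker by which NK cells of this strain are usually gated, was at 0.0911, 0.0607 and 0 CPM in ΔNK tumors. It was at 0.389, 2.43 and 3.62 CPM (lowest, median, highest) in PC tumors, a depth-scaled ratio of 43.7 (14.8 to 213) over 3 ΔNK reads. Its relative Klrb1f had 0 reads in ΔNK libraries and 103 in PC libraries, at least 15.5-fold lower in ΔNK. Both genes separated the groups completely.

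Receptors that activated CD8+ T cells also carry had large differences with the CD8 split, though not they alone. Klrc1 (NKG2A, an inhibitory receptor) was at 0.0911, 0 and 0.209 CPM in ΔNK tumors, at 0.445 to 3.54 in CD8L tumors and at 16.3 to 54.4 CPM in CD8H tumors. Klrd1 (CD94, its partner chain) was at 0.0607 to 0.522 CPM in ΔNK tumors against 1.89, 9.84 and 41.4 CPM in PC tumors. Klrk1 (NKG2D, a receptor for stress-induced ligands) was at 1.46, 0.182 and 0.626 CPM against 3.17, 15.7 and 63.2 CPM, a 29.2-fold difference in the fit. The mean log2 level of CD8H tumors exceeded that of CD8L tumors by 4.04 for Klrc1 and by 2.72 for Klrk1, against 1.40 for Klra8 and 1.07 for Klrb1c. Klra8 and Klrb1c had small gaps for the list. Klre1, another receptor of the list, was at −0.49 to 1.41 log2 CPM in CD8L and 2.63 to 3.77 in CD8H tumors, a gap close to that of Klrk1. For each of these genes the ΔNK tumors lay below even the CD8L tumors.

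Not every gene in the list separated the groups. Itga2, the integrin α chain recognized by the DX5 antibody on NK cells, which other cells also make, was at 3.19, 2.67 and 2.92 CPM in ΔNK tumors and at 2.79, 3.03 and 4.39 CPM in PC tumors (log2 difference −0.14, unadjusted p = 0.672). The groups overlapped throughout, and the depth-scaled ratio of PC to ΔNK reads was 1.09 (0.913 to 1.32). Styk1, Cd160 and Klrg1 overlapped as well, with log2 differences of −2.15, −2.82 and −2.44. Klrg1, a marker of mature NK and effector T cells, reached only 1.14 CPM in its highest PC tumor.

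**Figure D1:**
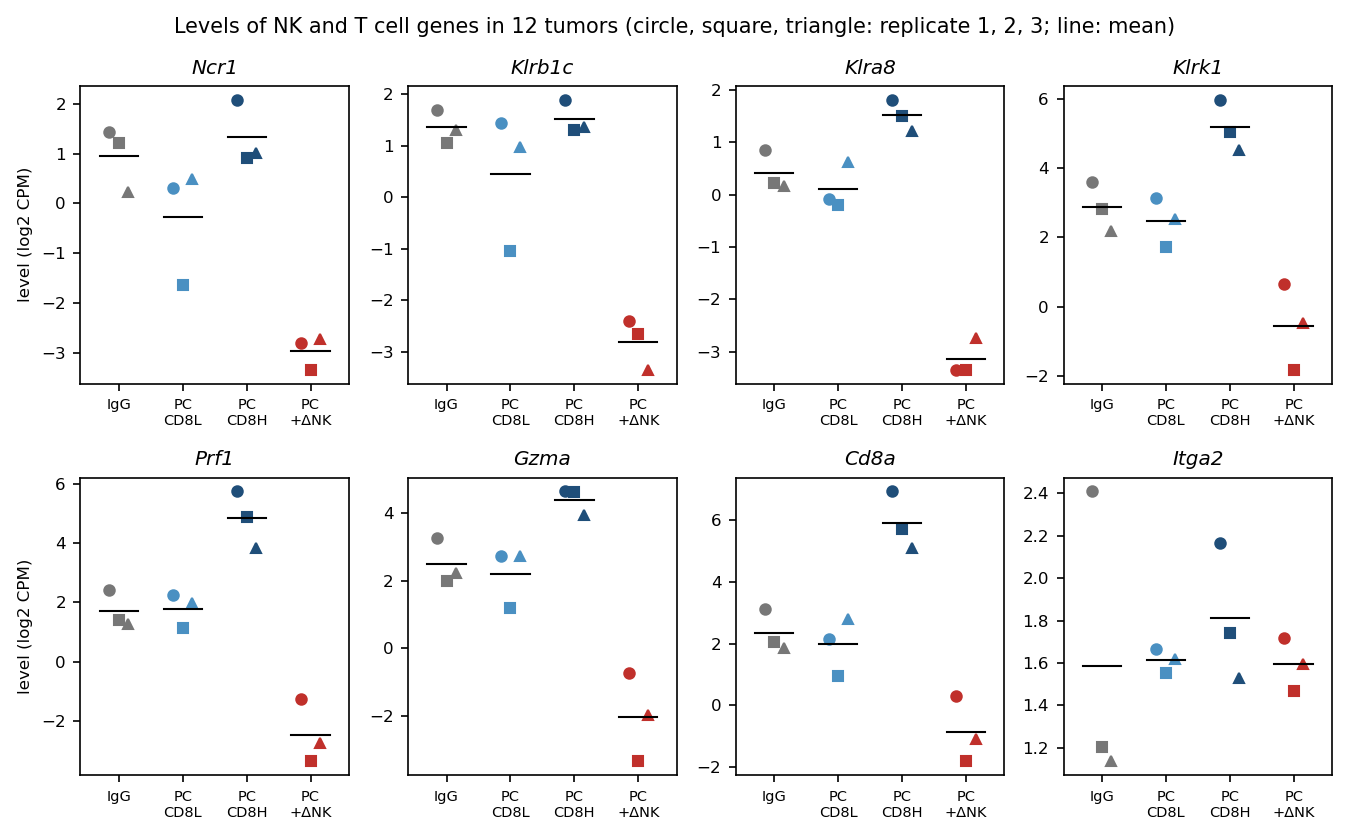
Levels (log2 CPM, y axis) of 6 NK and cytotoxicity genes, Cd8a and Itga2 in each of the 12 tumors by group (x axis); symbols mark replicates 1, 2 and 3 and lines the group means. For Ncr1, Klrb1c, Klra8, Klrk1, Prf1, Gzma and Cd8a the 3 ΔNK tumors lie below all 6 PC tumors, whereas for Itga2 the groups overlap (log2 difference −0.14).

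Cytotoxic effector genes were lower along with the receptors. Of 15 tested effector genes, 14 were lower at an unadjusted p of at most 0.05 and 7 did not overlap, with a median log2 difference of −4.85. Prf1 (perforin, the pore-forming protein) was at 0.319, 0 and 0.0522 CPM in ΔNK tumors. In PC tumors it was at 2.11, 9.47 and 53.7 CPM (lowest, median, highest), with 8 reads in the ΔNK libraries against 2350 in the PC libraries, a ratio of 132 (67 to 307). Gzma (granzyme A) was at 0.501, 0 and 0.157 CPM in ΔNK against 2.17, 10.9 and 25 CPM, and Gzmb (granzyme B) at 3.32, 0.485 and 1.98 against 3.34, 27.2 and 191 CPM. Gzmb in ΔNK replicate 1 was thus close to its lowest PC level, in CD8L replicate 2. Ctsw (cathepsin W, a protease of NK and CD8+ T cells) and Fasl (the death ligand) had log2 differences of −4.85 and −4.77 with no overlap. Gzmm was the exception, with a log2 difference of −0.16 (unadjusted p = 0.598). Gzmd, Gzmf, Gzme and Gzmg had 0 reads in all ΔNK libraries and 78, 123, 25 and 35 reads in the PC libraries; the last 2 did not pass the filter.

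T cell genes were lower too. All 23 genes tested for the T cell receptor complex and costimulation were lower at an unadjusted p of at most 0.05, with a median log2 difference of −4.03, and 11 of them had no overlap. Cd8a, the α chain of the CD8 coreceptor, was at 1.14, 0.182 and 0.365 CPM in ΔNK tumors, at 1.84 to 6.89 CPM in CD8L and at 34.3 to 124 CPM in CD8H tumors. Cd8a did not overlap between ΔNK and PC, although its level in CD8H tumors relates to how those tumors were chosen. Cd4, the coreceptor of helper T cells, was at 1.41, 0.0607 and 1.83 CPM against 2.06, 9.74 and 23 CPM, also without overlap. Cd3e, a signaling chain shared by T cells, overlapped because CD8L replicate 2 (0.612 CPM) was below ΔNK replicate 1 (0.638 CPM). Cd27, a costimulatory receptor of T and NK cells, was at 0.182 to 0.41 CPM in ΔNK tumors and at 1.06 CPM or more in PC tumors (log2 difference −4.61, unadjusted p = 0.000731).

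Transcription factors of cytotoxic and type 1 lymphocytes belonged to the same group of genes. Of 14 tested lymphocyte factors 11 were lower at an unadjusted p of at most 0.05. Tbx21 (T-bet, which drives interferon-γ production) was at 0.273, 0 and 0.209 CPM in ΔNK tumors and at 0.612, 4.65 and 19.6 CPM in PC tumors. Stat4, which relays interleukin-12 signals, had a log2 difference of −4.34 and Ikzf3 (Aiolos, a lymphocyte factor) of −4.37, both without overlap. The factors that did not pass were Batf, Id2 and Zeb2, with log2 differences of −0.51, 0.05 and 0.12. Foxp3, the factor of regulatory T cells, was at 1.37, 0.303 and 0.783 CPM against 1, 5.98 and 9.09 CPM and overlapped, whereas Ikzf2 (Helios) was at 9.92 to 10.6 CPM in ΔNK against 14.7 to 33 CPM in PC tumors.

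Among immune checkpoints and their ligands, 14 of 15 tested genes were lower at an unadjusted p of at most 0.05, and 7 had no overlap. Pdcd1, which encodes the targeted PD-1, was at 0.774, 0.121 and 0.261 CPM in ΔNK against 0.389, 9.96 and 57.4 CPM in PC tumors and overlapped. Ctla4, the other target, overlapped as well, at 1.96, 0 and 1.25 CPM against 0.89, 11.7 and 27.7 CPM. Cd274 (PD-L1, the interferon-inducible ligand of PD-1) did not overlap, at 40, 8.98 and 46.2 CPM in ΔNK and at 71.1, 163 and 380 CPM in PC tumors. Cytokines and receptors of NK and T cells were lower at the unadjusted threshold for 17 of 17 tested genes, 9 without overlap. Il18r1, a receptor chain for interleukin-18, was at 0.273, 0 and 0.313 CPM against 1.28, 8.69 and 31.9 CPM, and Il18bp, the soluble and interferon-inducible decoy of the same cytokine, at 14.4, 4.97 and 8.82 against 20, 61.7 and 177 CPM. Lta, a lymphocyte cytokine of the tumor necrosis factor family, had 0 reads in each ΔNK tumor and 0.14 to 3.72 CPM in PC tumors.

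Cells that asialo-GM antibodies may also bind were hard to assess. Of 13 basophil and mast cell markers 4 passed the filter, and the defining basophil gene Mcpt8 had 3 reads in the ΔNK and 21 in the PC libraries. The summed level of the 4 tested genes was 8.37 to 9.34 CPM in ΔNK, 9.57 to 20.2 in PC and 9.70 to 9.91 CPM in IgG tumors. Most of these reads came from Il4 and Gata2, with depth-scaled ratios of PC to ΔNK reads of 1.19 (1.04 to 1.36) and 0.949 (0.773 to 1.17). For Hdc and Cpa3 the ratios were 4.57 (3.36 to 6.36) and 5.12 (2.49 to 12.2). At an unadjusted p of at most 0.05 in edgeR's test, 2 of the 4 genes were lower. Of 10 genes of γδ T cells and innate lymphoid cells 5 were tested. Tcrg-C2, a γ chain constant region, had 3 reads in ΔNK against 730 in PC libraries, of which CD8H replicate 1 held 478. Trdc, the δ chain constant region, was at 0.228, 0.121 and 0 CPM in ΔNK tumors and at 0 to 1.42 CPM in PC tumors, with overlap (unadjusted p = 0.0532).

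Interferon-γ signals through a pair of receptor chains and JAK kinases to promoters with a gamma-activated site, whereas type I interferons act mainly at an interferon-stimulated response element. Ifng itself was at 0.82, 0 and 0.47 CPM in ΔNK and at 0.612, 3.87 and 14.7 CPM in PC tumors, with overlap (log2 difference −3.78, unadjusted p = 0.0112). Of 13 tested genes of the interferon-γ signaling chain, 10 were lower at an unadjusted p of at most 0.05. The receptor chain Ifngr2 had a log2 difference of 0.09 and the phosphatase gene Ptpn2 of −0.01, both far from the threshold.

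The downstream genes separated the groups most completely. All 11 guanylate-binding protein genes, GTPases that attack vacuoles of intracellular pathogens, and all 13 tested immunity-related GTPase genes had no overlap between ΔNK and PC tumors, against 5.8% of all tested genes, with median log2 differences of −3.26 and −2.69. Type I interferon-stimulated genes did not overlap for 26 of 28, and all 28 were lower at an unadjusted p of at most 0.05 (median log2 difference −1.84). Gbp7 was at 60.9, 7.52 and 72.2 CPM in ΔNK, at 119, 328 and 542 CPM in PC and at 147 to 226 CPM in IgG tumors. Gbp3 was at 87.3, 7.64 and 87.5 CPM in ΔNK and at 135, 390 and 717 CPM in PC tumors. Gbp2b was nearly unread in ΔNK tumors, at 0.0911, 0 and 0.104 CPM against 0.512, 4.84 and 47.1 CPM in PC tumors.

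Irgm1, a GTPase that regulates its family, was at 371, 60.8 and 320 CPM in ΔNK and at 392, 963 and 1602 CPM in PC tumors. Rsad2 (viperin, an antiviral enzyme) was at 85.7, 33 and 124 CPM against 176, 259 and 373 CPM, and Ifih1 (MDA5, a sensor of double-stranded RNA) at 41, 11.5 and 42.1 against 58.7, 107 and 135 CPM. In each of these genes ΔNK replicate 2 was far below the other ΔNK tumors. Its mean log2 CPM over the guanylate-binding proteins was 0.72 against 4.51 and 4.62 in ΔNK replicates 1 and 3, and over the immunity-related GTPases 1.78 against 6.10 and 6.04. Without ΔNK replicate 2, all 11, all 13 and all 28 tested members of these lists were still lower at the unadjusted threshold. The same tumor was also low in other lists. Its mean log2 CPM over T cell receptor and costimulation genes was −1.55 against 0.58 and 0.24 in ΔNK replicates 1 and 3. For MHC class II genes it was 0.95 against 3.71 and 2.77, and for macrophage and monocyte markers 2.19 against 3.89 and 3.69.

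RefSeq promoters, from 250 bases before to 50 after the start, could be assigned to 10761 of the 17320 tested genes and to 18 of 25 interferon-related genes among those named by rule. The gamma-activated motif TTCNNNGAA occurred on either strand in 6.7% of all these promoters and the response element (GAAA, any 2 bases, GAAA) in 3.15%. Among genes lower at the unadjusted threshold the shares were 9.1% and 7.79%, and among genes lower without overlap 12% and 13.1%. Among genes higher at the unadjusted threshold they were 4.05% and 2.91%. Of 20 type I interferon-stimulated genes with a promoter, 60% held the response element and 20% the gamma-activated motif. In contrast, 0 of 7 MHC class II promoters held the gamma-activated motif and 1 the response element, and 0 of 18 NK receptor promoters held the response element. Of the 18 promoters of named interferon-related genes, 10 had a match of either kind. Those of 3 genes with 2 or more matches are printed to show where the motifs lie; Irgm1 also had 2. All are from GRCm38.p6 and lie on the plus strand, with matches in capitals. Gbp7 (chr3:142530086-142530385) had gamma-activated motifs starting 106 and 87 bases before the start and a response element 53 bases before it. Irf8 (chr8:120736108-120736407), a transcription factor of dendritic cells and macrophages, had gamma-activated motifs 171 and 153 bases before the start. Gbp3 (chr3:142559794-142560093) had response elements 45 and 39 bases before the start, which overlap. A match is a stretch of letters and not a measured binding site.
Gbp7: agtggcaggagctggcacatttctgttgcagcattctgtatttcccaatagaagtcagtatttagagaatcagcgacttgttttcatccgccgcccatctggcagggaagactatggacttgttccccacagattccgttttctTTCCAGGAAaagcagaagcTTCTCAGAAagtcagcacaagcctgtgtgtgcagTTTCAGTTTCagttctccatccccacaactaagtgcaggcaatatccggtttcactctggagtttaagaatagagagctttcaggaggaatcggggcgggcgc
Irf8: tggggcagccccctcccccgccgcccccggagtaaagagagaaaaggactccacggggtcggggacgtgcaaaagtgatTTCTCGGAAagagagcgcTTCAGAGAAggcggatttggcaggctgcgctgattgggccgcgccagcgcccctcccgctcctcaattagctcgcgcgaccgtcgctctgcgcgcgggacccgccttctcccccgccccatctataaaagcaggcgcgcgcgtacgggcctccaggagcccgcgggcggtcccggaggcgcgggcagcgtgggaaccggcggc
Gbp3: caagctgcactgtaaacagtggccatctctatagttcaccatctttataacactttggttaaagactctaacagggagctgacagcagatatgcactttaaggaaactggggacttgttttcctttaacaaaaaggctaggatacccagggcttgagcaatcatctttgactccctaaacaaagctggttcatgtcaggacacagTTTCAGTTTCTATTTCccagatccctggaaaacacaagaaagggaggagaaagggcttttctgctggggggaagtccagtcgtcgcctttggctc

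Irf8 was at 16.3, 4.91 and 19.3 CPM in ΔNK tumors and at 17.6, 68.6 and 151 CPM (lowest, median, highest) in PC tumors. It overlapped because ΔNK replicate 3 exceeded CD8L replicate 2, and its log2 difference was −2.52 (unadjusted p = 0.00341).

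**Figure D2:**
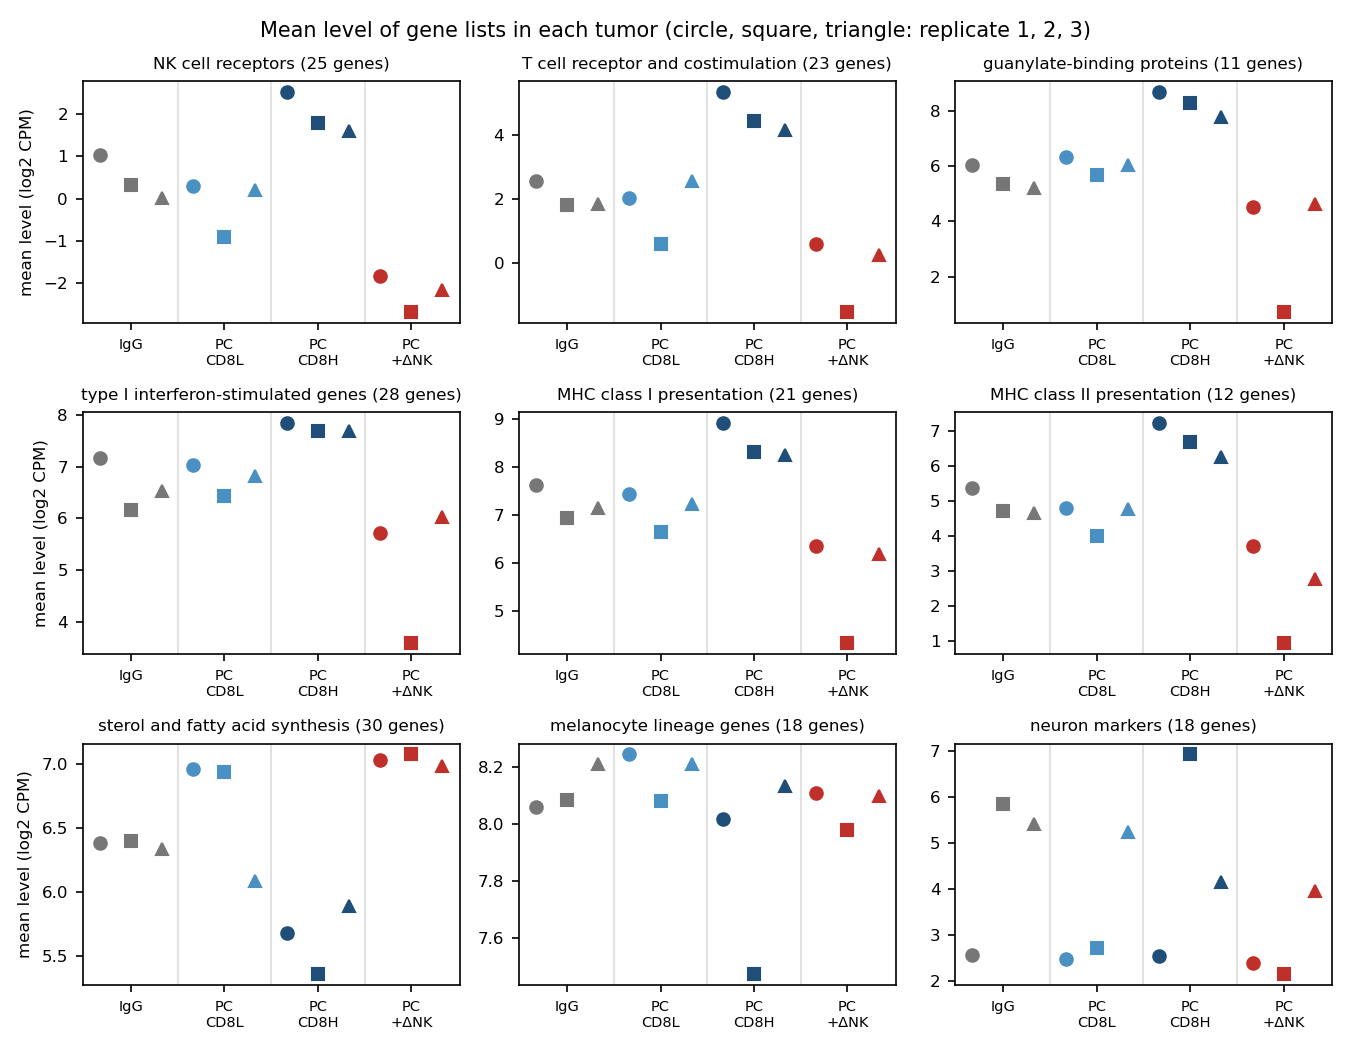
Mean level of 9 gene lists (mean log2 CPM of the tested members, y axis) in each tumor by group (x axis), with symbols for replicates 1, 2 and 3. ΔNK tumors lie below all PC tumors for NK receptors, guanylate-binding proteins, type I interferon-stimulated genes and both MHC lists, with ΔNK replicate 2 lowest (0.72 for guanylate-binding proteins), and above all PC tumors for sterol and fatty acid synthesis.

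Antigen presentation genes followed the interferon genes. MHC class I molecules show peptides from inside the cell to CD8+ T cells and also bind inhibitory NK receptors. Of 21 tested class I pathway genes 18 were lower at an unadjusted p of at most 0.05, 14 without overlap, with a median log2 difference of −2.15. H2-Q7, a non-classical class I gene with close copies in the same cluster, was at 7.6, 0.91 and 9.61 CPM in ΔNK against 16.4, 75 and 198 CPM in PC tumors. Psmb8, a subunit of the immunoproteasome, was at 13.6, 2.43 and 12.3 against 23.1, 94 and 288 CPM. Nlrc5, the transactivator of class I genes, was at 83.5, 12.1 and 89.7 against 165, 349 and 536 CPM. The 3 members that did not pass were the general chaperones of the endoplasmic reticulum Calr, Canx and Pdia3, with log2 differences of 0.18, 0.34 and 0.05.

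MHC class II genes, used by professional antigen-presenting cells to show peptides to CD4+ T cells, were lower for 12 of 12 tested members at the unadjusted threshold, 9 of them without overlap (median log2 difference −3.29). H2-Aa was at 48.7, 5.28 and 17.4 CPM in ΔNK tumors and at 71.3, 300 and 1106 CPM (lowest, median, highest) in PC tumors. Ciita, the transactivator of the class II genes, was at 17, 0.728 and 10.3 against 23, 75 and 196 CPM. Rfx5, a DNA-binding factor needed at the same promoters, differed less but as cleanly, at 11.7, 12 and 13.4 CPM against 15.6, 18.4 and 24.4 CPM (log2 difference −0.63, unadjusted p = 0.00316).

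Chemokines were divided. Of 28 tested chemokine genes 15 were lower at an unadjusted p of at most 0.05 (7 without ΔNK replicate 2), and 7 did not overlap. Ccl19, which the study discusses, did not pass the count filter, nor did Ccl21a, Ccl24 and Ppbp. Xcl1, a chemokine that NK and CD8+ T cells make to attract cross-presenting dendritic cells, was at 0.182, 0 and 0.261 CPM in ΔNK tumors and at 0.668, 2.23 and 5.48 CPM in PC tumors. The interferon-γ-induced ligands of the lymphocyte chemokine receptor Cxcr3 had no overlap. Cxcl9 was at 94.5, 2.67 and 76.2 CPM against 114, 379 and 966 CPM, and Cxcl10 was at 289, 45.3 and 267 against 293, 819 and 1535 CPM, so that ΔNK replicate 1 came close to the lowest PC tumor. Cxcl16, a ligand made by myeloid cells, was at 9.02, 2.55 and 7.67 against 10, 34.1 and 83.6 CPM. Its receptor Cxcr6, found on effector T and NK cells, was at 0.319, 0.364 and 0.783 against 2.23, 9.51 and 64 CPM. Ccl5, a product of activated T and NK cells among others, overlapped (log2 difference −2.30, unadjusted p = 0.0148). The monocyte attractants Ccl2 and Ccl7 did not pass, with log2 differences of −0.20 and −0.22. The 28 chemokine genes are among those that depended on ΔNK replicate 2: without it 7 rather than 15 were lower at the unadjusted threshold.

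Chemokine receptors were lower for 14 of 16 tested genes. Cxcr3 was an exception, at 5.83, 3.7 and 2.24 CPM in ΔNK and at 3.12, 5.83 and 15.3 CPM in PC tumors (unadjusted p = 0.112). Among molecules by which lymphocytes enter tissue, 9 of 14 were lower at the unadjusted threshold. Itgal, the LFA-1 α chain of leukocytes, was at 17.3, 14.1 and 16.8 CPM against 24, 57.2 and 147 CPM, and its ligand Icam1 at 8.52, 2.24 and 8.09 against 8.68, 23.4 and 62.8 CPM, both without overlap. Vcam1, a vascular ligand for lymphocyte integrins, overlapped (log2 difference −2.83). Endothelial markers themselves were not lower: 0 of 14 tested genes were lower and 3 were higher at the unadjusted threshold, with a median log2 difference of −0.02. Cdh5, the junctional cadherin of vessels, was at 27.7, 36.9 and 40.9 CPM in ΔNK and at 18.6, 25 and 31.9 CPM in PC tumors.

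Conventional dendritic cell markers were lower for 10 of 13 tested genes at the unadjusted threshold, and Fscn1 was higher. Of the 13 genes, 7 were lower without overlap, against 5.8% of all tested genes. They included defining genes of the cross-presenting subset. Xcr1, the receptor for Xcl1, was at 0.319, 0.121 and 0.209 CPM in ΔNK and at 0.946, 1.94 and 8.77 CPM in PC tumors. Clec9a, a receptor for dead cells, was at 0.182, 0.425 and 0.261 against 1.01, 2.36 and 9.25 CPM. Flt3l, the growth factor for dendritic cells that NK cells are known to supply in mouse tumors, was at 0.774, 1.09 and 1.25 against 1.56, 4.3 and 7.94 CPM. None of the 3 overlapped. Cd209a, a marker of monocyte-derived dendritic cells, did not overlap either. It differed about as much from CD8L as from CD8H tumors, with log2 differences of −1.94 and −2.13.

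Of 19 macrophage and monocyte markers, 17 were lower at the unadjusted threshold, 4 of them without overlap. Fcgr4, an activating Fc receptor induced by interferon-γ, was at 9.24, 1.46 and 8.61 CPM in ΔNK against 13.5, 44.3 and 119 CPM in PC tumors. Csf1r, the receptor for the macrophage growth factor, was at 56.7, 32.2 and 58.6 against 54.2, 140 and 245 CPM and overlapped. Microglia markers, which mark the resident macrophages of the brain, were lower for 7 of 11, or 4 without ΔNK replicate 2, but 1 alone (P2ry13) had no overlap. B and plasma cell markers were lower for 8 of 10 tested genes and for 3 without ΔNK replicate 2.

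Complement genes and targets of NF-κB were lower as well. Complement genes were lower for 12 of 13 tested members at the unadjusted threshold, or 8 without ΔNK replicate 2. C3, the central complement component, was at 13, 0.91 and 15.1 CPM in ΔNK and at 13.7, 73.3 and 276 CPM in PC tumors, with overlap by CD8L replicate 2. Of 18 NF-κB subunits and targets 14 were lower, or 8 without ΔNK replicate 2. Traf1, an adaptor of tumor necrosis factor receptors, was at 3.37, 1.09 and 2.92 CPM against 4.39, 13.1 and 47.1 CPM, and Tnfrsf1b, the receptor TNFR2, at 10.6, 5.34 and 10.7 against 11.6, 36.9 and 94.5 CPM. Both separated the groups, with log2 differences of −2.90 and −2.39.

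Markers of brain tissue had negative medians, and how many passed the unadjusted threshold depended on the test and on single libraries. Neuron markers had a median log2 difference of −2.07, yet 1 of 18 (Adora2a, a receptor gene of striatal neurons) was lower at the unadjusted threshold. Camk2a, a kinase of excitatory neurons, was at 33.8, 44.9 and 131 CPM in ΔNK and at 23, 279 and 614 CPM in PC tumors. Astrocyte markers and oligodendrocyte markers were lower for 2 of 11 and 3 of 13 tested genes. For comparison, 14.7% of all tested genes were lower at that threshold. The lists are short, so no difference from that share was read from these counts. DESeq2 gave 10 neuron markers, 6 astrocyte markers and 11 oligodendrocyte markers lower at the same threshold. The count for neuron markers was 7 without CD8L replicate 1 and 0 without CD8H replicate 2, where their median was −0.997. With the neuron marker level of each library as a covariate, 2122 genes were lower and 585 higher at an unadjusted p of at most 0.05; the part of brain tissue in the other differences was not tested further. Melanocyte lineage genes, the identity genes of the tumor cells, had a median log2 difference of 0.08, and 1 of 18 (Kit) was lower. Dct, a pigment enzyme, was at 7803, 6651 and 6645 CPM in ΔNK and at 2519, 5281 and 8051 CPM in PC tumors.

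**Figure D3:**
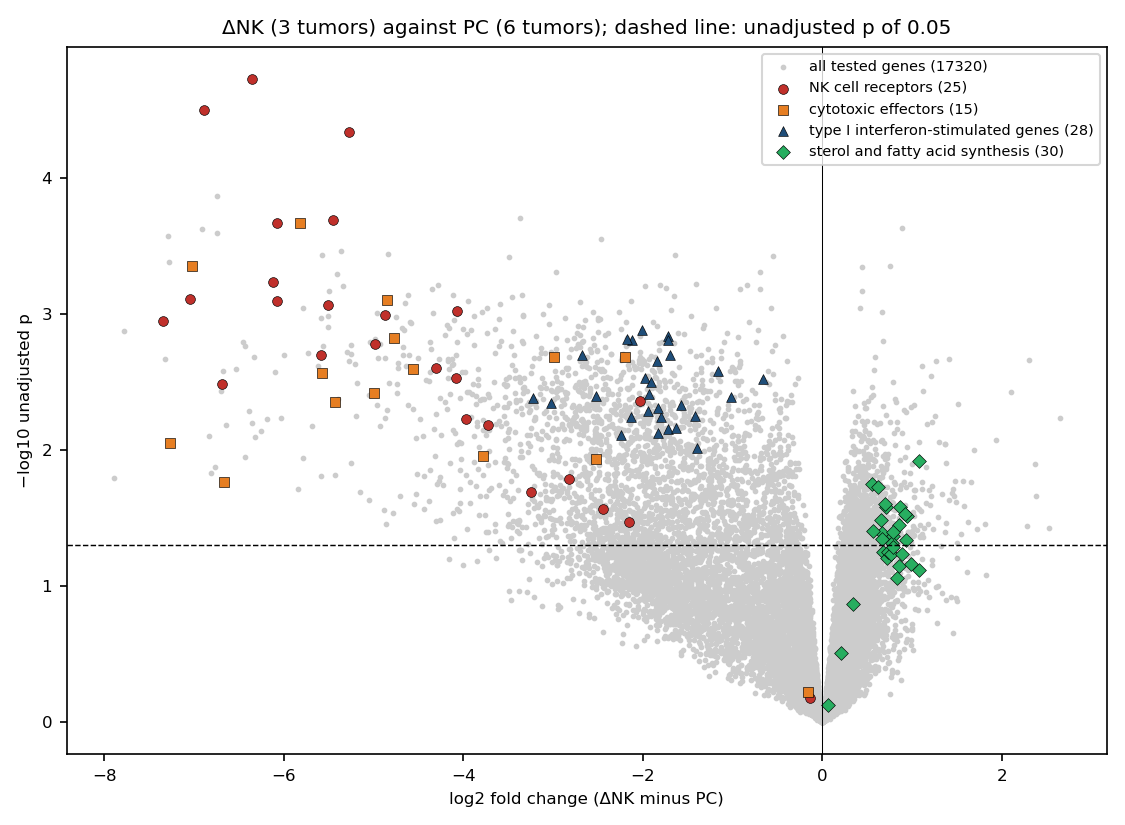
Each of the 17320 tested genes by its log2 difference (ΔNK minus PC, x axis) and the −log10 of its unadjusted p in edgeR's quasi-likelihood test (y axis), with 4 gene lists in color. NK receptors and cytotoxic effectors reach the largest negative differences, interferon-stimulated genes center on −1.84 and sterol genes on 0.77, and no gene passed the adjusted test.

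On the higher side, differences were smaller. In sterol and fatty acid synthesis all 30 tested genes had a positive log2 difference (median 0.77), 17 were higher at an unadjusted p of at most 0.05 and 7 had no overlap, against 2.28% of all tested genes. Hsd17b7, a reductase on the way to cholesterol, was at 40.5, 39.9 and 36.5 CPM in ΔNK and at 19.2, 24.2 and 35.7 CPM (lowest, median, highest) in PC tumors. Srebf2, the transcription factor that drives the pathway, was at 356, 338 and 340 against 133, 172 and 340 CPM and overlapped by CD8L replicate 1. The 2 highest PC tumors were CD8L replicates 1 and 2, and the median difference was 0.30 against CD8L and 1.42 against CD8H tumors. The count of 17 became 3 without ΔNK replicate 1 or replicate 2, 9 without CD8H replicate 2 and 28 without CD8L replicate 2, and it was 28 with limma voom and in the 4-group fit.

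Nuclear genes of the respiratory chain had positive differences for all 43 tested members, 6 at the unadjusted threshold, and all 26 cell cycle genes had positive differences with none at that threshold. The corresponding medians were 0.35 and 0.44. Against CD8L tumors alone they were 0.12 and 0.15, and against CD8H tumors 0.62 and 0.83. For the respiratory chain, nuclear genes, the count of 6 became 39 with limma voom, 18 in the 4-group fit, 36 without CD8L replicate 1 and 0 without ΔNK replicate 1. For cell cycle genes the count of 0 became 25 with limma voom and 16 in the 4-group fit. Ndufa4, a subunit of the respiratory chain, was at 519, 438 and 433 CPM in ΔNK and at 163, 279 and 446 CPM in PC tumors. Ccnb1, the mitotic cyclin, was at 173, 183 and 180 against 48.3, 113 and 173 CPM. Both genes overlapped by CD8L replicate 1. Of 28 genes for matrix and collagens 3 were lower and 4 higher at the unadjusted threshold, against 14.7% and 5.24% of all tested genes. With 1 library left out these counts ran from 0 (without CD8H replicate 2) to 9 (without CD8L replicate 1) lower and from 1 (without ΔNK replicate 2) to 6 higher, and DESeq2 gave 9 lower and 5 higher. Hapln1, which links hyaluronan to proteoglycans, was at 476, 375 and 360 CPM in ΔNK and at 37.5, 81.2 and 292 CPM in PC tumors, and Col4a1, a basement membrane collagen, at 289, 361 and 349 against 133, 192 and 350 CPM.

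Because CD8L and CD8H tumors differed in many immune genes, genes with a limited CD8 difference were looked for, with the means of the PC subgroups within 0.5 log2 CPM. Of 697 genes lower in ΔNK without overlap, at a mean level of no less than 1 log2 CPM, 170 met this limit, and of 349 higher genes 230 did. The share of all tested genes within the limit was not computed, so the counts only describe how many genes were left to choose from. The genes described here were picked by p-value from the genes within the limit after their values were seen. The limit is close to the size of some differences given below, and it does not make the PC subgroups equal. Among the genes described, the CD8L and CD8H tumors did not overlap for Fndc3a, Afap1l2, Ehd3 and Ehd2. Afap1l2 was at 4.48 to 4.73 log2 CPM in CD8L and 4.04 to 4.45 in CD8H tumors. Ehd2 was at 3.98 to 4.38 in CD8L and 3.75 to 3.96 in CD8H tumors. The PC subgroups were also apart for Ncoa7 and Hip1, which were within the limit and are not described further. Fndc3a (chr14:72537946-72710003, minus strand), a fibronectin domain protein, was at 67.5, 67.1 and 70.7 CPM in ΔNK, at 89 to 91.8 CPM in CD8L and at 106 to 120 CPM in CD8H tumors. Tlr3 (chr8:45395665-45411080, minus strand), an endosomal sensor of double-stranded RNA, was at 56.2, 35.8 and 59.4 CPM in ΔNK and at 70, 89.6 and 107 CPM (lowest, median, highest) in PC tumors. Plxnc1, a semaphorin receptor, was at 77.1, 62.1 and 89.6 against 103, 123 and 145 CPM. The log2 differences of the 3 genes were −0.55, −0.83 and −0.70.

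In the other direction, Afap1l2 (chr19:56912361-57008228, minus strand), an adaptor of Src family kinases, was at 38.4, 42.9 and 37.8 CPM in ΔNK and at 16.3, 22 and 26.5 CPM (lowest, median, highest) in PC tumors. It was 1.85-fold higher in ΔNK tumors (unadjusted p = 0.000234), the smallest p among higher genes. Lin7c, a scaffold protein of cell junctions, was at 79.7, 98.5 and 79.7 CPM against 58.9, 62.9 and 69.8 CPM and at 60.7 to 66.6 CPM in IgG tumors. Its mean level in CD8H tumors differed from that in CD8L tumors by −0.08 on the log2 scale. Maml3, a coactivator of Notch signaling, was at 9.65, 12.5 and 11.2 against 6.9, 7.68 and 7.72 CPM, and Ehd3 and Ehd2, relatives that act in endocytic recycling, were 0.76 and 0.66 higher on the log2 scale.

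**Figure D4:**
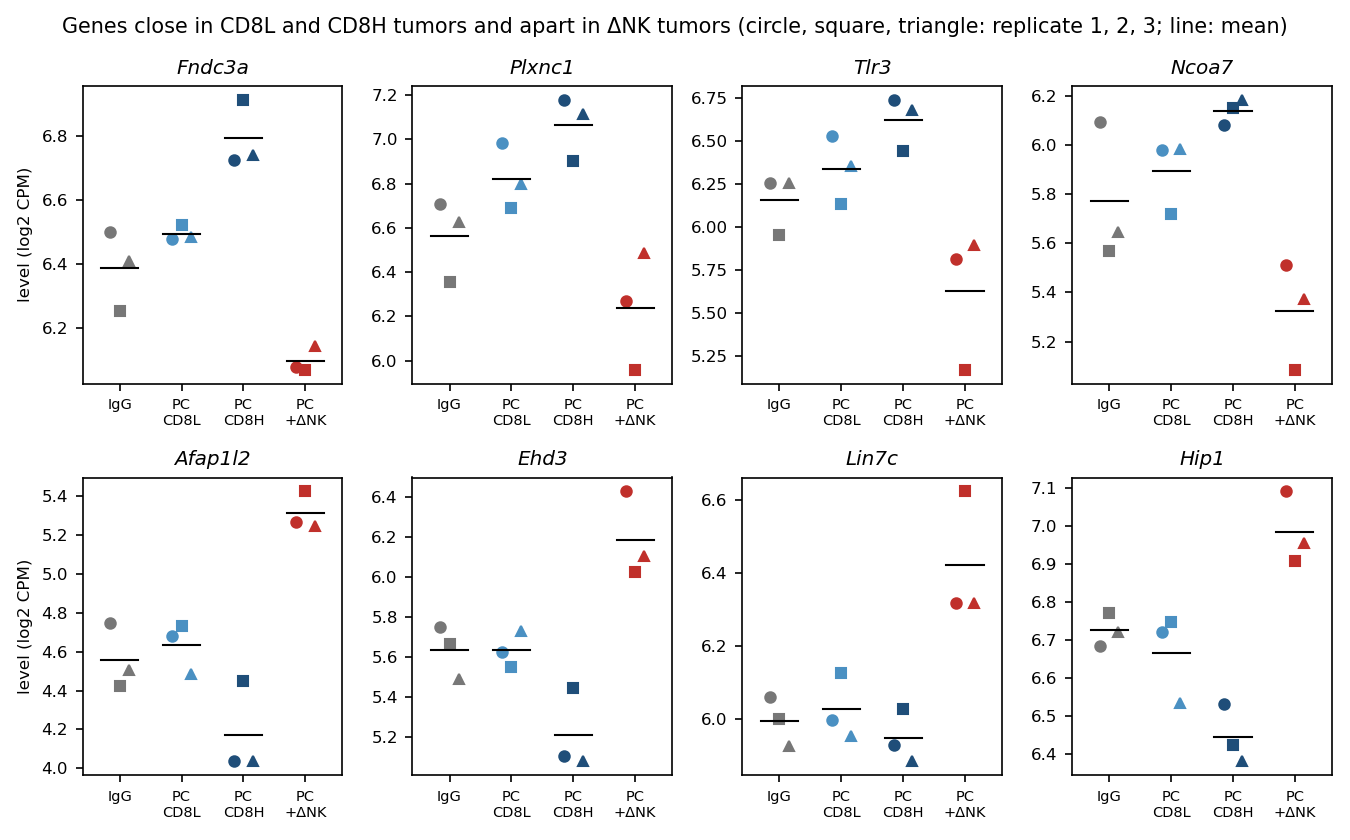
Levels (log2 CPM, y axis) in the 12 tumors by group (x axis) of 4 genes lower and 4 genes higher in ΔNK tumors whose CD8L and CD8H means lay within 0.5 log2 CPM of each other; symbols mark replicates 1, 2 and 3 and lines the group means. The genes were chosen among those without overlap, so the 3 ΔNK tumors lie outside the range of the 6 PC tumors in each panel by selection. Afap1l2, for example, was at 37.8 to 42.9 CPM against 16.3 to 26.5 CPM. Close means do not imply that CD8L and CD8H tumors overlap, and for Afap1l2 they did not.

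The difference from PC tumors as a whole combined a larger difference from CD8H tumors with a smaller one from CD8L tumors. The same ΔNK tumors entered both, so the values stand side by side and are not independent. In the fit with 4 groups, edgeR called 2719 genes lower (15.7%) and 2531 higher (14.6%) in ΔNK than in CD8H tumors. Against CD8L tumors it called 0 genes (0%), with 924 lower (5.33%) and 128 higher (0.739%) at an unadjusted p of at most 0.05, while DESeq2 called 151 and limma voom 0. NK receptors had median log2 differences of −3.18 against CD8L and −5.67 against CD8H tumors. For T cell genes they were −1.94 and −4.85, and for type I interferon-stimulated genes −1.33 and −2.19. Of the 25 NK receptor genes tested, 20 were lower than in CD8L tumors at the unadjusted threshold, as were 26 of 28 type I interferon-stimulated genes and 12 of 12 MHC class II genes. For sterol synthesis this held in the higher direction for 1 of 30.

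**Figure D5:**
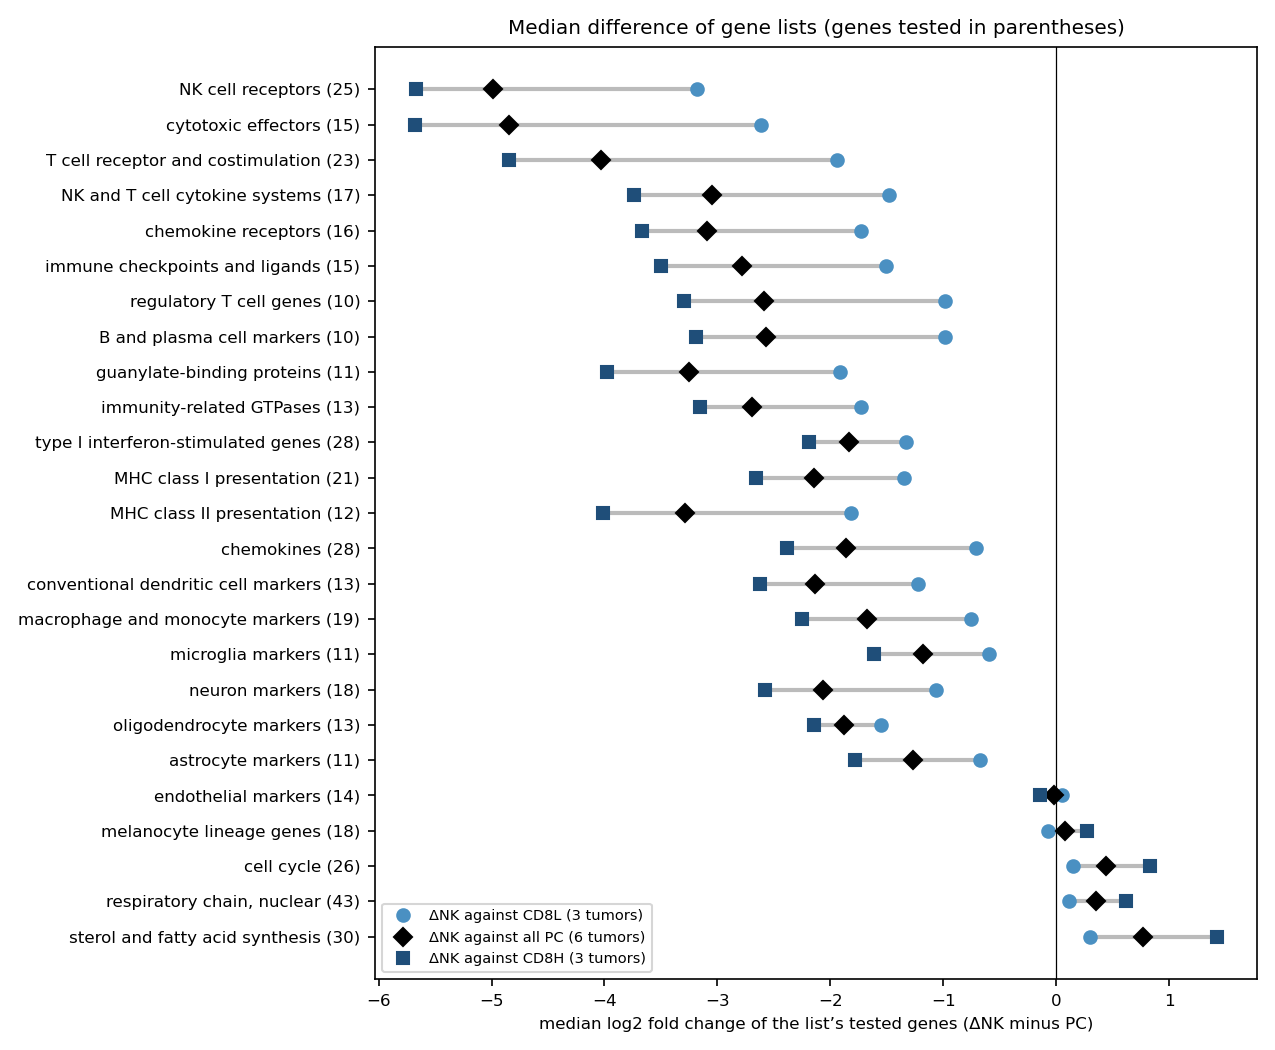
Median log2 difference (x axis, ΔNK minus PC) of the tested genes of 25 lists (y axis) against CD8L tumors (circles), all PC tumors (diamonds) and CD8H tumors (squares). The diamonds lie between the other symbols, from −4.99 for NK receptors to 0.77 for sterol and fatty acid synthesis.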

How the data were processed

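Bulk mRNA of 12 mouse intracranial tumors was sequenced. According to the submitters' notes, the authors used STAR 2.6.1d, StringTie 1.3.3b and featureCounts 1.5.0-p3 with GRCm38.p6, and deposited whole-number counts and FPKM per gene; their own comparisons used DESeq2 1.26.0. The annotation release and strand setting were not given in the sources used here.

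The deposited counts were analyzed here in R 4.3.3 with edgeR 4.0.16 (TMM, filterByExpr, quasi-likelihood F test), with IgG, PC and ΔNK as groups over all 12 libraries and Benjamini-Hochberg adjusted p of at most 0.05. Levels are CPM scaled by the TMM factors, or log2 CPM with a prior count of 2 for single libraries. Single genes were also tested by a two-sided exact permutation test over 84 splits. DESeq2 1.42.0, limma 3.58.1 and the deposited FPKM served as alternatives, with pseudocounts of 1 and 0.1 on the log2 scale, on which fold changes of low genes are understated. Ratios of pooled reads were scaled by the TMM-adjusted library sizes, with exact 95% intervals that cover counting error only. The scripts were tested on simulated data.

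The 41 gene lists and the genes named were chosen with earlier results of these data known. Named were NK receptors, up to 4 members of each list with the smallest p, and genes the study discusses. Rules that needed called genes named none, so genes with the smallest unadjusted p were added after their values were seen. Some genes are not reported here.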

Additional observations from a re-analysis of the deposited data

Results flagged for a closer look

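Levels of genes named in the text and of gene lists (log2 CPM) gave 213 sets of 6 PC tumors. Of these, 7 held a tumor whose gap to its nearest neighbor exceeded 0.625 of the range of the 6. That cutoff flags about 1 in 20 sets drawn from a single normal distribution. The rate does not apply here, because the 6 combine CD8L and CD8H tumors and all sets share the same tumors. CD8L replicate 2 was low for Klrb1c, at −1.04 against 0.97 to 1.90 in the other PC tumors, and for Klra4, at −2.26 against 0.30 to 1.63. In both genes it was the PC tumor nearest to the ΔNK tumors. CD8H replicate 1 was high for Itga2, at 2.16 against 1.53 to 1.74. CD8H replicate 2, the tumor with the highest neuron marker level, was high for the striatal receptor gene Adora2a, at 6.26 against 1.96 to 3.55. The same tumor was low for the mitotic cyclin gene Ccnb1, at 5.60 against 6.76 to 7.44, for the melanocyte factor Sox10, at 8.27 against 8.88 to 9.21, and for the mean of the melanocyte lineage genes, at 7.47 against 8.02 to 8.24.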

How the results depend on the processing

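The main test called 0 genes, with 2545 lower and 908 higher at an unadjusted p of at most 0.05. No gene was called with other size factors, other count filters, the 9 PC and ΔNK libraries alone, the neuron marker covariate or FPKM. The DESeq2 Wald test called 1431 genes (66 higher, 1365 lower). Limma voom with sample quality weights called 6522 (3594 higher, 2928 lower), with 4070 lower and 4505 higher unadjusted; its weights ran from 0.217 for CD8L replicate 1 to 3.78 for IgG replicate 3. The 4-group fit called 1750 (540 higher, 1210 lower), with 2277 higher unadjusted. Unadjusted higher genes numbered 517 with the 9 libraries alone and 585 with the neuron covariate. With the replicate number as a block, 0 genes were called and 2580 lower and 1011 higher genes were unadjusted. To look for a pairing, each gene's log2 CPM was expressed as its deviation from the mean of the tumor's own group. These deviations correlated at 0.59, 0.48 and 0.54 between same-numbered ΔNK and CD8L tumors. Between same-numbered ΔNK and CD8H tumors they correlated at 0.46, −0.06 and −0.14, so the numbers were not taken as a pairing. Leaving out 1 library at a time gave 0 to 634 called (0 to 53 higher, 0 to 581 lower), the highest without CD8L replicate 2. Unadjusted counts ran from 1591 (without ΔNK replicate 2) to 3753 lower and from 378 (without ΔNK replicate 1) to 2407 higher (without CD8L replicate 1). Chosen after seeing the data, leaving out CD8H replicate 2, CD8L replicate 3 and ΔNK replicate 3 together, the tumors with the most neuron marker RNA of their group, gave 1545 lower and 305 higher. Against CD8L tumors DESeq2 called 151 genes, and 0 were called with any library left out. Against CD8H tumors the calls ran from 3340 (without CD8H replicate 2) to 6313 with 1 library left out, with 3412 without ΔNK replicate 1, and were 7754 with DESeq2 and 7660 with limma voom. Why the tools differ was not tested. No named gene changed direction in 4469 alternative values. Most of these genes were named for small p-values in the same tumors, so this says little about stability. Of the alternative list values, which were counts and median differences, 270 moved and 2805 did not. A count was taken as moved beyond 1.5 times, a median beyond a separate limit on the log2 scale. For genes under 1 CPM, read numbers of 0 to 3 in the ΔNK libraries limit the size of the ratios.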

Other observations

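The Y-linked genes Ddx3y, Eif2s3y, Kdm5d and Uty had 0 reads in all 12 mouse libraries. Xist was read in all of them, at 34.1, 76.9 and 74.7 CPM in ΔNK and at 33.7, 167 and 626 CPM (lowest, median, highest) in PC tumors. Hemoglobin and other red blood cell genes had positive log2 differences for all 5 tested markers, with a median of 0.73, and none was past the unadjusted threshold.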
